A study of Mus musculus with 18 samples.

Results

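Mouse embryonic fibroblasts that can be induced to express Oct4, Klf4, Sox2 and Myc (OKSM) were reprogrammed in the presence of AGi (ascorbic acid together with an inhibitor of the kinase GSK3), and gene expression late in that time course was compared with expression early in it. The arrays were chosen by their labels: 6 of the 18 arrays of the series carried OKSM with AGi, those of days 8, 10 and 12 (late) and those of days 2, 4 and 6 (early), with 1 array a day. They came from bulk populations of the reprogrammable fibroblasts, and the strain of all 18 arrays was given as Black6-129X1/SvJ. Where it helps to place a gene, the values of 6 arrays of the same days with OKSM but no AGi are given, and those of single arrays of uninduced fibroblasts (MEFs, no dox), embryonic stem cells (ESCs), iPSCs derived from fibroblasts or from granulocyte-macrophage progenitors (GMPs), GMPs, and Thy1-positive cells sorted after 3 days of OKSM. No day was repeated in an arm and nothing says that the days were separate cultures, so the 3 days of a period stand in for replicates, and each error and p-value measures the spread between days, of whatever source. All values are log2 expression as deposited.

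Reprogramming of fibroblasts is known to proceed in stages. Fibroblasts lose mesenchymal genes and gain epithelial ones, and the genes of the pluripotency network are switched on afterwards, the last of them shortly before cells become independent of the introduced factors. Ascorbic acid is a cofactor of the TET enzymes, which oxidise methylated DNA, and of the Jumonji histone demethylases, and a GSK3 inhibitor stabilises beta-catenin. Many cells of an induced culture never reach the pluripotent state, so a bulk sample holds cells of several fates. In such samples, fewer cells of a type and less RNA per cell cannot be told apart.

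Late AGi cultures expressed more of the pluripotency genes Sox2, Tdgf1 and Dppa2, and more of the matrix and secreted-factor genes Penk, Mmp3, Lum and Aspn. Of 33 tested genes with a Hox name 9 fell and 1 rose. The calcium-activated potassium channel gene Kcnma1 had the largest fall of the genes that passed the test. Of 13865 genes tested with limma, 145 passed at an adjusted p threshold of 0.05 (1.05%), with 102 higher late (0.736%) and 43 lower late (0.31%). Of the 145, 80 rose and 28 fell by at least 1 log2. All 145 had late and early values that did not overlap, a property shared by 29.2% of the genes tested. At an unadjusted p under 0.05, 2915 genes passed. Centring each array on its hybridisation controls, which lowers the early values by more than the late ones and moves the median gene by 0.12, gave 304 higher and 42 lower. The gene just inside the threshold had an adjusted p of 0.0490 and the gene just outside 0.0501. The count depended on which day was left out: with day 2, 4, 6, 8, 10 or 12 left out in turn, limma called 168, 7, 153, 93, 6 and 53 genes, whereas all 145 kept their direction when any 1 day was left out. The genes called with each of the 6 days left out were Kcnma1, Mir297a-4, Olfr1502, Olfr310, Penk and Slitrk6. In none of these 6 fits were 20 of the 145 called, among them Hoxa2, Mir341, Ifit1, Meis2 and Trib3. Sox2 was called in 4 of the 6 fits, Tdgf1 and Dppa2 in 2 each, and Grhl2, Mdk and Mapk13 in 1 each. With the spread shared over the 12 arrays of both arms, 912 genes rose (6.58%) and 548 fell (3.95%), and 142 of the 145 were among them.

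The pluripotency genes moved at different times. Those that passed the late against early test all moved most between days 6 and 8, though not every gene that did so passed. The same interval led 143 of all 145 genes that passed. The late minus early difference weights it most, so this timing is largely set by the test. Sox2, a core pluripotency factor and one of the introduced factors, read 9.20, 10.86 and 11.84 on days 8, 10 and 12, against 5.80, 5.67 and 6.34 on days 2, 4 and 6. Its late values lay far above its early ones and the day 12 value came close to ESCs (12.19). Sox2 rose by 4.70 ± 0.61 (limma SE, n = 3 days a period, adjusted p = 0.0275), or 26.0-fold. The early values lay near that of uninduced fibroblasts (5.36), although the introduced Sox2 is induced on these days by design. Tdgf1, the Nodal co-receptor Cripto, read 9.92, 11.29 and 12.03 late, against 5.32, 5.72 and 7.43 early, and rose by 4.92 ± 0.68 (adjusted p = 0.0315). Its early values already climbed between days 4 and 6, yet stayed below every late one. Dppa2, a chromatin-associated protein of pluripotent cells, read 8.12, 8.83 and 10.29 late, against 5.78, 6.00 and 6.11 early (3.11 ± 0.50, adjusted p = 0.0442). Nr5a2, a nuclear receptor that binds the Oct4 promoter, rose by 2.39 ± 0.36 (adjusted p = 0.0389), and Gdf3, a TGF-beta family ligand of pluripotent cells, by 1.68 ± 0.26 (adjusted p = 0.0418). Lefty2, a Nodal antagonist, rose by 1.02 ± 0.12 (adjusted p = 0.0228), to between 6.80 and 7.05 late, still below ESCs at 10.46.

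Other pluripotency genes had differences as large and did not pass. Some of them, Nanog, Utf1, Nr0b1 and Sall4, had moved by day 6, and their early days differed among themselves. Nanog, a core pluripotency factor, read 6.36, 7.76, 10.70, 11.41, 11.78 and 12.08 on days 2 to 12, so that its largest move, 2.94, fell between days 4 and 6. Its late minus early difference was 3.48 ± 0.98 (adjusted p = 0.137). Utf1, a chromatin-associated factor of pluripotent cells, read between 11.24 and 12.09 late, against 5.52, 6.75 and 9.51 on days 2, 4 and 6 (4.38 ± 0.91, adjusted p = 0.0820). On the log2 scale most of the climb of both genes thus came by day 6, when both still lay below every late value. Nr0b1, a nuclear receptor of the pluripotency network, moved most between days 2 and 4, with 5.85, 8.54, 9.50, 10.50, 11.02 and 12.00 over the 6 days. Sall4, a zinc finger factor, likewise moved most between days 2 and 4 (6.54 and 8.16 on these days, 10.11 on day 12). A slope over day in place of 2 levels called 776 genes rising (5.6%) and 462 falling (3.33%), and passed for Nanog (adjusted p = 0.0125) and for Utf1 (adjusted p = 0.00526). Over the 15 alternatives, Nanog's adjusted p ranged between 0.0125 and 0.699 and 3 alternatives called it, and Utf1's ranged between 0.00526 and 0.331 with 4 calls.

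The promoters of Nanog and Sox2 are shown because the first moved most between days 4 and 6 and the second between days 6 and 8. Both are RefSeq sequences of GRCm38.p6, plus strand, from 250 bases before to 50 after the start. Capitals mark the motifs searched on both strands: the composite Oct-Sox motif in Nanog, found 75 bases before the start at chr6:122707239-122707538, and the octamer part TTTGCAT in Sox2, found 99 bases before the start at chr3:34649745-34650044.
Nanog promoter: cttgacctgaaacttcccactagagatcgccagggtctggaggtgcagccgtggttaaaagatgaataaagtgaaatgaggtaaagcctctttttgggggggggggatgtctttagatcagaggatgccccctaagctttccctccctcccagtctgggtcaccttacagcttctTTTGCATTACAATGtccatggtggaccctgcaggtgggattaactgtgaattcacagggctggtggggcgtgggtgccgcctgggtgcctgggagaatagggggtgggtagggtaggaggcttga
Sox2 promoter: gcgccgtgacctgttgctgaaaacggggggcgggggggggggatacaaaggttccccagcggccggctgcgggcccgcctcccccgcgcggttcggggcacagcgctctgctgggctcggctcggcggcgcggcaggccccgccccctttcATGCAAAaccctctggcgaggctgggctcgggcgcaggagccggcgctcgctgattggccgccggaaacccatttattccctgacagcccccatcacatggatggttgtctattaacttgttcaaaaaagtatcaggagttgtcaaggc
The composite motif occurred in 1 of the 10828 promoters of tested genes, that of Nanog, and its letters include the octamer part. It was matched letter for letter, so looser forms in other promoters were not counted. Its part in the timing of Nanog was not tested. The octamer part occurred in 437 of them (4.04%) and in 1 of the 66 promoters matched for genes that rose, the Sox2 promoter shown here.

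Of 19 tested naive pluripotency factors, 2 rose (Sox2 and Nr5a2) and none fell, against 0.736% and 0.31% of all genes tested. Late values lay above all early ones for 17 of these factors, against 15.3% of all genes tested. Their median difference was 1.78, against 0.00 for all genes tested, and 13 rose with the spread of both arms (6.58% of all genes tested). Of 20 tested late pluripotency genes, 3 rose (Tdgf1, Dppa2 and Gdf3) and none fell, with a median of 1.55 (0.736% of all genes tested rose). In this list 8 genes moved most between days 10 and 12, as did 32.1% of all genes tested. Dnmt3l, a cofactor of DNA methylation, read 5.85, 5.57, 5.94, 6.80, 7.86 and 9.06 on days 2 to 12 (2.12 ± 0.51, adjusted p = 0.102). Dppa4, the partner of Dppa2, read 6.21, 6.11, 6.15, 6.98, 7.56 and 8.99 (1.69 ± 0.46, adjusted p = 0.130). Both were still climbing on the last day, when they lay below the ESC levels of 9.97 and 9.69. Esrrb, a naive pluripotency factor, moved most between days 10 and 12, with 8.78 on day 12 and 7.52 on day 10 (1.50 ± 0.47, adjusted p = 0.151). Zfp42, the naive marker Rex1, read 7.27, 8.36 and 9.80 late, against 5.31, 5.37 and 5.66 early (3.03 ± 0.57, adjusted p = 0.0686). Tfcp2l1, a naive factor, read 9.79, 10.81 and 12.02 late, against 8.60, 7.83 and 8.20 early (2.66 ± 0.52, adjusted p = 0.0775). Lin28a, an RNA-binding protein that blocks let-7 maturation, reached 8.09 on day 12, against 10.85 in ESCs. Dppa5a, an RNA-binding protein of pluripotent cells, stayed between 6.10 and 6.38 in the 6 AGi arrays and read 6.75 in ESCs, so it gave little signal anywhere.

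Of the introduced factors other than Sox2, none passed. Pou5f1 (Oct4) read 7.36, 7.69 and 7.79 late and at most 7.26 early (0.45 ± 0.15, adjusted p = 0.164), with 8.13 in ESCs. Klf4 stayed between 11.59 and 12.10, above both ESCs (11.23) and uninduced fibroblasts (9.62). Myc stayed between 8.59 and 9.11, below uninduced fibroblasts (11.40). Whether these probe sets read the introduced copies as well as the cells' own genes was not tested.

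**Figure D1:**
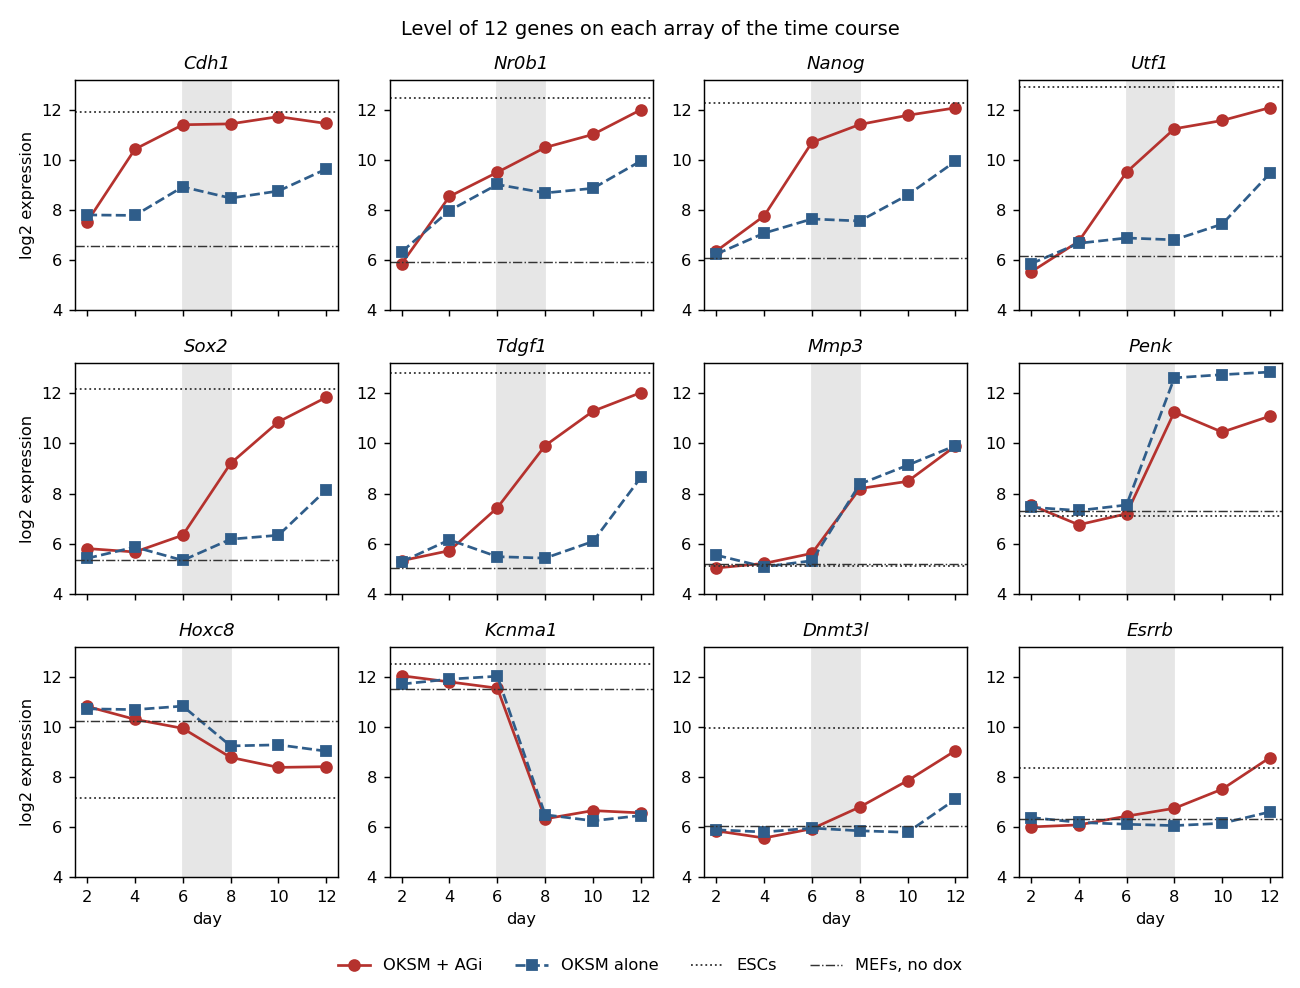
Log2 expression of 12 genes on each array by day, with OKSM and AGi as filled circles, OKSM alone as squares, and single arrays of ESCs and uninduced MEFs as horizontal lines. The shaded band marks days 6 to 8. The largest move came before it for Cdh1 and Nr0b1, by day 6 for Nanog and across it for Sox2, Mmp3, Penk and Kcnma1. For Dnmt3l and Esrrb the largest move came after the band. Nr0b1, Nanog, Dnmt3l and Esrrb also rose across the band.

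Mir290a, the gene of a miRNA that is abundant in pluripotent cells and belongs to the miR-290 cluster, climbed over the whole course. Its mature sequences follow, from RefSeq (GRCm38.p6, chr7:3218639-3218660 and chr7:3218674-3218697, plus strand), with the seed, bases 2 to 8, in capitals. They are shown beside the sequences of Mir329, Mir341 and Mir1983, the 3 miRNA genes with a mature sequence in the table that passed the test. Mir329 and Mir341 lie in the imprinted cluster of chromosome 12 (chr12:109713503-109713524 and chr12:109713541-109713562 for miR-329, chr12:109611521-109611541 and chr12:109611556-109611576 for miR-341, plus strand), and Mir1983 on chromosome 13 (chr13:21896930-21896950, minus strand).
miR-290a-5p: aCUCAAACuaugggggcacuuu
miR-290a-3p: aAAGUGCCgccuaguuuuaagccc
miR-329-5p: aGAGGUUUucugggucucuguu
miR-329-3p: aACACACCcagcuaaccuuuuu
miR-341-5p: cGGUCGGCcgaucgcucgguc
miR-341-3p: uCGGUCGAucggucggucggu
miR-1983: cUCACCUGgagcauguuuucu
No seed was shared among these 7 sequences. The Mir290a probe set read 6.98, 7.82 and 9.63 late, against 4.04, 4.47 and 6.18 early (3.24 ± 0.77, adjusted p = 0.102), and passed ESCs (8.60) on day 12. Mir329 fell by 1.27 ± 0.14 (adjusted p = 0.0228), with 8.38, 7.96 and 8.20 late, against 9.52, 9.29 and 9.52 early. Mir341 fell by 0.74 ± 0.12 (adjusted p = 0.0483), to between 7.85 and 8.06. Mir1983 fell by 1.72 ± 0.23 (adjusted p = 0.0280), with 5.65, 5.03 and 5.54 late, against 6.81, 7.07 and 7.50 early. An array of total RNA does not tell a mature miRNA from its precursor, so these values are of the miRNA genes' transcripts. Of the 6 miRNA genes that passed, 3 had a mature sequence in the table.

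The epithelial genes Cdh1 and Epcam moved most between days 2 and 4 and did not pass the late against early test. Cdh1, the epithelial cadherin, read 7.53, 10.43, 11.40, 11.44, 11.73 and 11.45 on days 2 to 12, so most of its climb came between days 2 and 4 and it was nearly complete by day 6. Its late minus early difference was 1.75 ± 0.89 (adjusted p = 0.302). Epcam, an epithelial surface glycoprotein, moved by 2.76 between days 2 and 4 and ended at 10.71 (2.94 ± 0.94, adjusted p = 0.160). Of 34 tested epithelial genes, 2 rose (0.736% of all genes tested rose) and none fell, with a median difference of 1.17. Late values lay above all early ones for 24 of the 34, against 15.3% of all genes tested. The largest moves of these 34 were spread over the course, with 9 between days 2 and 4, 9 between days 4 and 6, 7 between days 6 and 8, 4 between days 8 and 10 and 5 between days 10 and 12 (15.6%, 14.5%, 25.1%, 12.6% and 32.1% of all genes tested). The genes that rose were Grhl2, a transcription factor of epithelia, and Rab25, a GTPase of epithelial vesicle traffic. Grhl2 read 7.50, 7.70 and 7.57 late, against 5.84, 6.08 and 6.68 early (1.39 ± 0.21, adjusted p = 0.0403). Rab25 read 8.65, 9.32 and 9.41 late, against 6.48, 6.40 and 7.21 early (2.43 ± 0.28, adjusted p = 0.0230). Esrp1, an epithelial splicing factor, moved most between days 4 and 6 (2.24 ± 0.51, adjusted p = 0.0940), as did Spint1, a protease inhibitor of epithelia (2.21 ± 0.67, adjusted p = 0.147).

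The rise between days 6 and 8 also took in genes that are low in ESCs. Penk, which encodes the precursor of enkephalin peptides, read 11.26, 10.45 and 11.09 late, against 7.54, 6.75 and 7.19 early. The late values lay at least 2.91 above every early one. Penk rose by 3.77 ± 0.27 (adjusted p = 0.00499), while uninduced fibroblasts (7.29) and ESCs (7.11) lay at its early level. Mmp3, a matrix metalloproteinase that degrades proteoglycans, read 8.20, 8.49 and 9.90 late, against 5.03, 5.21 and 5.61 early (3.58 ± 0.43, adjusted p = 0.0233). Lum, a small leucine-rich proteoglycan that binds collagen fibrils, read 7.70, 8.20 and 9.64 late, against 5.10, 4.64 and 5.61 early (3.39 ± 0.50, adjusted p = 0.0364). Neither Mmp3 nor Lum was above 5.72 on any of the 12 arrays outside days 8 to 12 of the 2 arms. Aspn, a related proteoglycan, took another course, with 9.23, 8.95 and 9.97 late, against 6.30, 4.26 and 4.80 early (4.26 ± 0.52, adjusted p = 0.0237). Its late level came near that of uninduced fibroblasts (10.36). Mmp9, the gelatinase B gene, rose by 3.09 ± 0.39 (adjusted p = 0.0259), and Mmp19 by 1.65 ± 0.18 (adjusted p = 0.0228). Mmp13, a collagenase, differed by 4.41 ± 0.80 and did not pass (adjusted p = 0.0643). It read between 9.66 and 11.10 late, against 4.92, 4.72 and 7.63 on days 2, 4 and 6. It was called by 4 of the 15 alternatives, whose adjusted p ranged between 0.00448 and 0.252.

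Mmp3 and Mmp13 lie in a cluster of metalloproteinase genes on chromosome 9. Their promoters are shown since both genes read high on the late arrays of both arms and low on the 12 other arrays except for Mmp13 on day 6 with AGi. They are RefSeq sequences of GRCm38.p6, plus strand, at chr9:7445572-7445871 for Mmp3 and chr9:7272264-7272563 for Mmp13, with the letters of the AP-1 motif TGANTCA in capitals (searched on both strands, found 46 and 35 bases before the start).
Mmp3 promoter: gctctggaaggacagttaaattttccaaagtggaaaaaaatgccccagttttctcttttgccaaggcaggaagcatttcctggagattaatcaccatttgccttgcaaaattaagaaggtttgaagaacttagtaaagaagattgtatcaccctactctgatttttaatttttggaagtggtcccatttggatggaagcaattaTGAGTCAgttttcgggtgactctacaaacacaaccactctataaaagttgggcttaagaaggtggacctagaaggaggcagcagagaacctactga
Mmp13 promoter: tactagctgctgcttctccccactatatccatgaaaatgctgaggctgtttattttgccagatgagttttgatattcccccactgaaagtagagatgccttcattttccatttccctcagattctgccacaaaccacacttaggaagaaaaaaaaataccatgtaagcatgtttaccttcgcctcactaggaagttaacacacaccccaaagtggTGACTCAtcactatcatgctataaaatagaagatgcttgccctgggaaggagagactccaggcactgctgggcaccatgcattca
These letters occurred in 684 of the 10828 promoters of tested genes (6.32%) and in 1 of the 27 for genes that fell. They occurred in 8 of the 66 matched for genes that rose (12.1%), Mmp3 among them. These shares were not compared with a test. The match is of letters only.

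Of 24 tested matrix proteoglycan and protease genes, 5 rose (Aspn, Mmp3, Lum, Mmp9 and Mmp19) and none fell, against 0.736% and 0.31% of all genes tested. Of the 24, 14 moved most between days 6 and 8, as did 25.1% of all genes tested. The list's median difference was 0.70 and its median move between days 6 and 8 was 0.83. Dcn, decorin, read 9.05, 9.45 and 9.80 late, against 8.37, 6.68 and 7.42 early (1.94 ± 0.41, adjusted p = 0.0845). Ogn, osteoglycin, differed by 2.19 ± 0.47 (adjusted p = 0.0876), and Fmod, fibromodulin, by 0.17 ± 0.22 (adjusted p = 0.681). The mean level of the list was lowest on day 4 (7.78) and lay between 9.25 and 9.84 late, above uninduced fibroblasts at 9.03. None of 35 tested fibroblast genes passed in either direction (1.05% of all genes tested passed). Of the 35, 22 moved most between days 6 and 8, the interval that led 25.1% of all genes tested. Pdgfra, a growth factor receptor of mesenchymal cells, read 8.36, 8.62 and 10.30 late, against 6.62, 5.91 and 6.64 early (2.70 ± 0.50, adjusted p = 0.0674). Thy1, the fibroblast surface marker, read between 10.39 and 10.90 late and was lowest, at 8.84, on day 4 (1.09 ± 0.45, adjusted p = 0.230). Col1a1, a collagen I chain, read 10.19 on day 12 and 11.74 on day 2 (-0.43 ± 0.32, adjusted p = 0.479). The mean level of the fibroblast list lay between 9.20 and 9.37 late, against 8.59 to 9.40 early, with 10.24 in uninduced fibroblasts and 7.93 in ESCs, so fibroblast transcripts were present throughout.

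**Figure D2:**
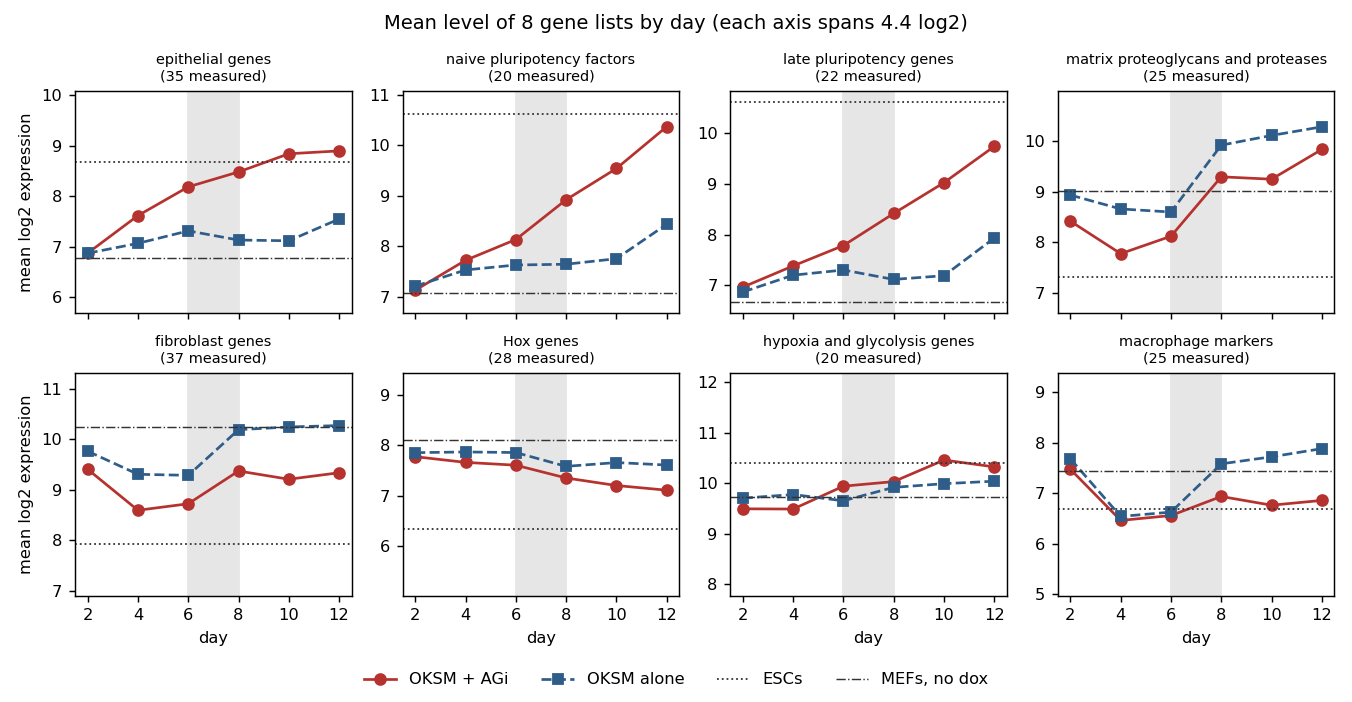
Mean log2 expression of 8 gene lists by day, with OKSM and AGi as filled circles, OKSM alone as squares, and single arrays of ESCs and uninduced MEFs as horizontal lines. The pluripotency lists climb on every day with AGi, whereas the matrix and fibroblast lists are lower on day 4 than on day 2 and higher on day 8 than on day 6 in both arms.

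Among other genes that rose, several encode signalling proteins. Nrn1, the neuritin gene, read 9.91, 10.18 and 10.90 late, against 6.59, 6.84 and 7.58 early (3.33 ± 0.33, adjusted p = 0.0171). Fgf2, a growth factor, rose by 1.22 ± 0.11 (adjusted p = 0.0127), with 8.04, 8.00 and 8.21 late, against 6.76, 6.97 and 6.87 early. Bmp4, a morphogen of the TGF-beta family, rose by 1.11 ± 0.13 (adjusted p = 0.0233). Ltbp2, a matrix protein of the microfibrils, was the only 1 of 24 TGF-beta and contractile targets that rose (1.57 ± 0.18, adjusted p = 0.0230). The TGF-beta list had a median of -0.14, and none of its members fell. Cyp2b23, a cytochrome P450 gene, read 8.56, 9.39 and 10.33 late, against 4.57, 4.55 and 6.40 early (4.25 ± 0.61, adjusted p = 0.0338), above ESCs (5.94) and uninduced fibroblasts (5.13). Late means above both uninduced fibroblasts and the mean of the pluripotent arrays were found for 61 of the 102 genes that rose, against 29.6% of all genes tested. Of the 43 genes that fell, 20 had late means below both, against 23.0% of all genes tested. Genes that rose or fell were picked by their late values, so both shares are raised by the choice itself.

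Hox genes, which encode the positional identity of fibroblasts, made up 9 of the 43 genes that fell. Of 26 tested members of the Hox list, 9 fell and 1 rose, against 0.31% and 0.736% of all genes tested. Their median was -0.52 (-0.40 when arrays were centred on the hybridisation controls). All 33 tested genes with a Hox name held the same 9 and 1, with a median of -0.38. Hoxc8 read 8.79, 8.39 and 8.42 late, against 10.82, 10.30 and 9.94 early, and fell by 1.83 (adjusted p = 0.0274). Hoxc6 read 7.57, 7.52 and 7.34 late, against 9.64, 8.83 and 9.11 early, and fell by 1.72 (adjusted p = 0.0236). Hoxb6 fell by 1.37 (adjusted p = 0.0127), with 6.82, 6.55 and 6.56 late, against 8.01, 8.11 and 7.91 early. The late values of Hoxc8 lay between uninduced fibroblasts (10.23) and ESCs (7.16), and those of Hoxb6 near ESCs (6.39). The others that fell were Hoxa2, Hoxb3, Hoxb4, Hoxb5, Hoxb9 and Hoxc9, by between 0.69 (Hoxb9) and 1.11 (Hoxb3). Hoxd11 was the member that rose, with 8.45, 8.36 and 8.47 late, against 7.73, 7.76 and 7.63 early (0.72 ± 0.10, adjusted p = 0.0305). Edn1, the endothelin 1 gene, fell by 2.24 (adjusted p = 0.0364), with 6.76, 7.29 and 7.33 late, against 10.06, 9.26 and 8.78 early. Plagl1, an imprinted zinc finger gene, fell by 1.16 (adjusted p = 0.0275). It was the only one of 17 tested members of the imprinted gene list that passed. Mir329 and Mir341, of the imprinted cluster of chromosome 12, passed too but were not in that list.

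A different set of falls held genes that read low on days 8 to 12 in both arms and high almost everywhere else. Kcnma1 read 6.33, 6.66 and 6.57 late, against 12.05, 11.80 and 11.55 early. The late values lay at least 4.89 below every early one and within 0.33 of each other, and Kcnma1 fell by 5.28 (adjusted p = 7.73e-05). Uninduced fibroblasts (11.53), ESCs (12.52) and both iPSC arrays (13.18 and 11.06) read high, while GMPs (7.20) and the sorted Thy1-positive cells (6.48) read low. With OKSM alone, Kcnma1 read 6.50, 6.25 and 6.47 late, against 11.71, 11.91 and 12.03 early. Olfr310, an olfactory receptor gene, read 7.99, 7.59 and 8.14 late, against 10.82, 10.92 and 10.69 early (-2.90 ± 0.16, adjusted p = 0.00179), and lay between 10.61 and 11.25 on all 6 arrays outside the time course. Mir297a-4 (-3.04 ± 0.15, adjusted p = 0.00100), Mir669h (-3.13 ± 0.38, adjusted p = 0.0237) and Mir466b-2 (-2.85 ± 0.31, adjusted p = 0.0228) belong to repeat-derived miRNA families. Mir669h lay at or below 5.54 on the late arrays of both arms and at or above 7.69 on the 12 other arrays. Olfr1502 (-1.86 ± 0.12), 1700030N03Rik (-1.77 ± 0.20) and Snord8, a small nucleolar RNA (-1.12 ± 0.10), followed the same pattern.

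Over all genes tested, 141 read lower on each of the 6 late arrays of both arms than on each of the 12 other arrays (1.02%), and 87 read higher (0.627%). These 141 held 11 of the 43 genes that fell, and the 87 held 21 of the 102 that rose, among them Mmp3, Lum and C2cd4a. The AGi values that set these groups also made the calls, so some overlap is built in. Of 11 tested genes of the miR-297, miR-466, miR-467 and miR-669 families, 10 were lower late, 3 of them passed and 8 lay below all 12 other arrays. The median of the 11 was -1.62 with AGi and -1.61 with OKSM alone. Of 54 tested olfactory receptor genes, 4 fell and 12 lay below all other arrays, with a median of -0.24. Whether the late arrays were handled apart from the others is not given in the sources used here, and its part in these values was not tested. The 18 hybridisation control probe sets, which come from no cell, differed by between -0.30 and 0.10 late minus early, with a mean of -0.12. None of them was called. Array medians of the 6 AGi arrays lay between 6.32 and 6.38.

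**Figure D3:**
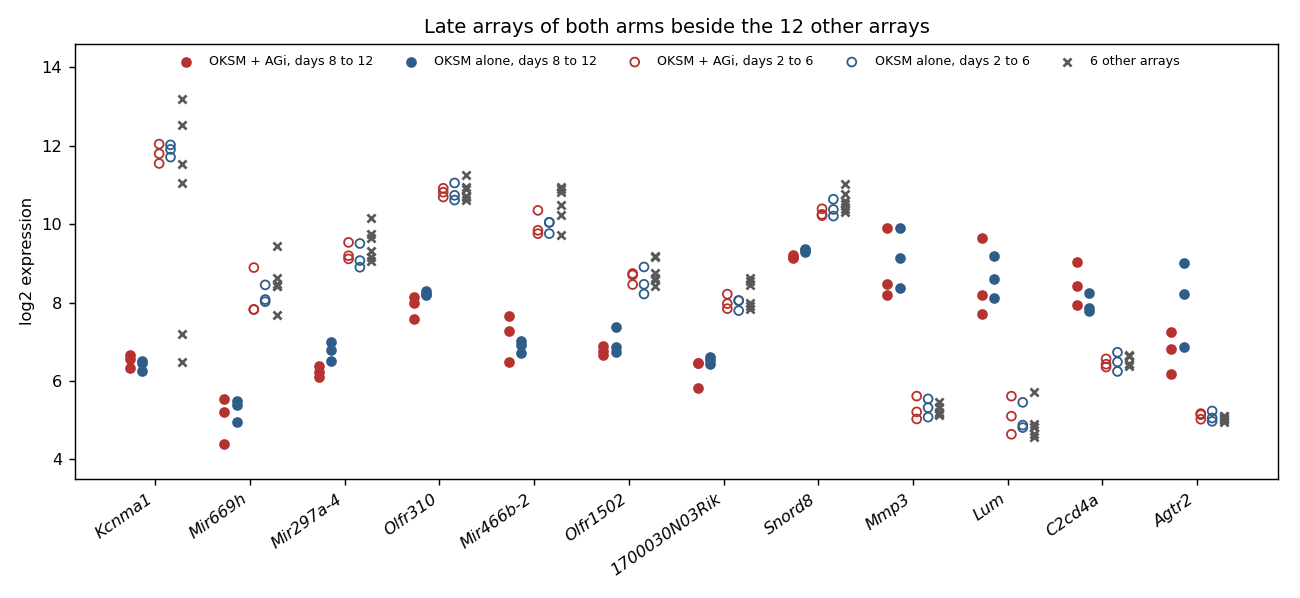
Log2 expression of 12 genes on each array, with the late arrays of both arms as filled points, the early arrays of both arms as open circles and the 6 arrays outside the time course as crosses. For the first 8 genes the filled points lie at the bottom (GMPs and sorted Thy1-positive cells are also low for Kcnma1), and for the last 4 at the top.

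The genes were then separated by the interval in which they moved most. The late minus early difference takes the move between days 6 and 8 in full and all other moves in part, so that interval is favoured in any list of called genes. Of the 145 genes that passed, 143 moved most between days 6 and 8 and 2 between days 4 and 6. These 2 were Mapk13, a stress-activated kinase (1.74 ± 0.27, adjusted p = 0.0430), and Mdk, the growth factor midkine (1.73 ± 0.28, adjusted p = 0.0459). To compare intervals without the test, all 518 genes that differed by at least 1 log2 were classed (3.74%), 415 of them higher late (2.99%) and 103 lower late (0.743%). Of the 415, 38 moved most between days 2 and 4, 57 between days 4 and 6, 156 between days 6 and 8, 29 between days 8 and 10 and 135 between days 10 and 12. Of the 103, 47 moved most between days 6 and 8 and 56 in another interval. By the difference of day 12 and day 2, which weights all intervals alike, 1354 genes differed by at least 1 log2. Of these, 377 higher and 207 lower genes moved most between days 10 and 12, and 170 and 65 between days 6 and 8. Days 2 to 4 led 129 higher and 190 lower genes, days 4 to 6 led 99 and 45, and days 8 to 10 led 61 and 11. A model with a slope and a step between days 6 and 8 called no gene for the step (477 genes at an unadjusted p under 0.05, smallest adjusted p 0.0576) and none for the slope (1255 genes, smallest adjusted p 0.172). As no gene passed for either term, the model did not separate the classes. With 3 residual degrees of freedom it recovered 0% of simulated steps of 2 log2. The simulated spread was that about the period means, which holds any trend within a period, so this share may be too low. With the slopes and steps of both arms in 1 fit, 3 genes were called for the step with AGi, Penk upwards and Kcnma1 and Olfr310 downwards.

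**Figure D4:**
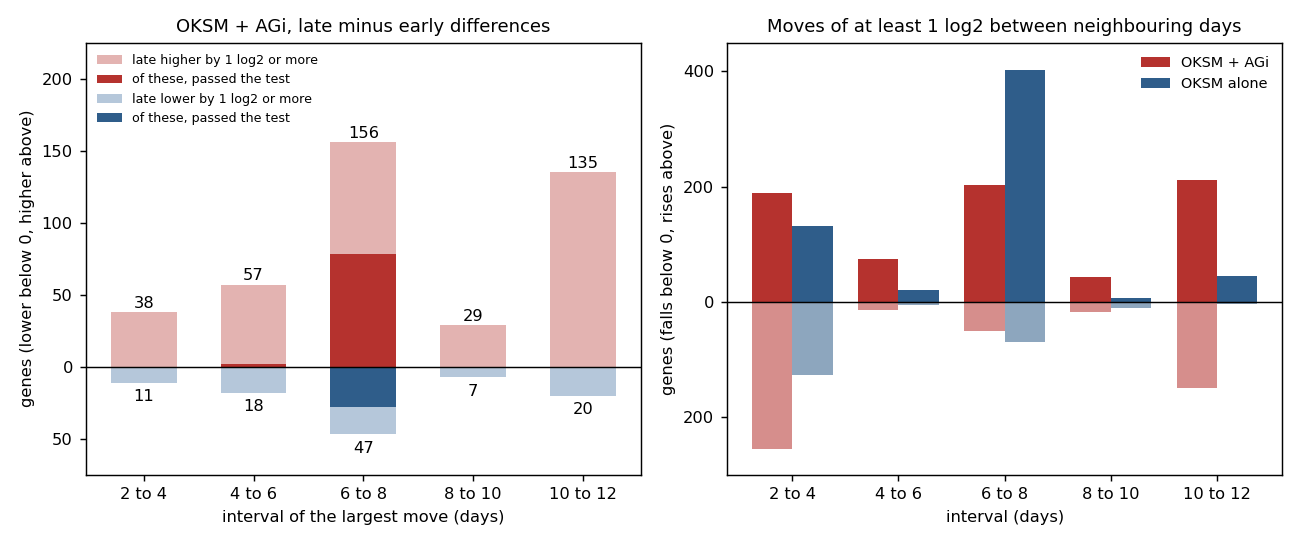
The left plot counts genes whose late minus early difference with AGi was at least 1 log2 by the interval of their largest move, higher genes above 0 and lower genes below, with those past the test in dark colour. The right plot counts moves of at least 1 log2 between neighbouring days, AGi left of OKSM alone, rises above 0 and falls below.

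The intervals differed in which genes moved. Of the 156 higher genes led by days 6 to 8, 36 (23.1%) had a mean over the 3 pluripotent arrays that exceeded the uninduced fibroblasts by 1 log2 or more, a property of 10.6% of all genes tested. Among the higher genes led by other intervals the share was 81.6% for days 2 to 4, 68.4% for days 4 to 6, 75.9% for days 8 to 10 and 71.9% for days 10 to 12. The genes led by days 6 to 8 also had the largest differences in the arm without AGi, with a median of 1.25, against 0.46, 0.46, 0.26 and 0.23 for the other intervals in order of time. Of these 156 genes, 113 (72.4%) moved most between days 6 and 8 in the OKSM arm as well, which 39.8% of all higher genes did. For the 135 genes led by days 10 to 12 it was 55 (40.7%), against 14.9% of all higher genes. Of the 47 lower genes led by days 6 to 8, 43 moved most in that interval in the OKSM arm too (91.5%), against 31.7% of all lower genes. The moves of all 13865 genes correlated between arms with r = 0.63 across days 6 to 8 and r = 0.15 across days 10 to 12 (across genes within 1 pair of arrays a day, so the points share their arrays).

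Each interval had its own leading genes, given here as descriptions without a test. Between days 2 and 4 the epithelial genes Cdh1 and Mpzl2, a cell adhesion gene, climbed (Mpzl2 read 10.41 on day 4 and 7.16 on day 2), and Tll1, a metalloproteinase that acts on matrix proteins, declined (7.68 on day 4 and 9.93 on day 2). Trh, the precursor of thyrotropin-releasing hormone, read 6.91, 9.88, 11.66, 12.74, 12.58 and 11.10 on days 2 to 12, near ESCs (12.67) by day 8. Between days 4 and 6 Nanog, Utf1 and Mmp13 climbed, and Epha7, an ephrin receptor, declined (8.21 on day 6 and 9.14 on day 4). Between days 8 and 10 Elf3, an epithelial transcription factor, climbed (8.75 on day 10 and 7.36 on day 8), and Ccl2, a monocyte chemokine, declined (8.90 on day 10 and 10.08 on day 8). Between days 10 and 12 Fthl17b, a ferritin heavy chain-like gene, read 9.81 on day 12 and 6.67 on day 10, with 6.99 in ESCs and 10.01 in fibroblast-derived iPSCs. Nup62cl, a nucleoporin-like gene, moved over the same interval (10.60 on day 12 and 7.99 on day 10), as did Zfp981, a zinc finger gene (10.14 and 7.22 on the same days). Necab1, a calcium-binding protein gene, declined there (6.19 on day 12 and 8.61 on day 10). The days 10 to 12 interval rests on the single day 12 array, and moves of at least 1 log2 in it numbered 212 up (1.53%) and 149 down (1.07%) with AGi. Between days 2 and 4 such moves numbered 189 up (1.36%) and 255 down (1.84%), between days 4 and 6 75 up (0.541%) and 14 down (0.101%), between days 6 and 8 203 up (1.46%) and 50 down (0.361%), and between days 8 and 10 43 up (0.31%) and 17 down (0.123%). With OKSM alone the count up between days 6 and 8 was 403, more than in any other interval of that arm.

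The late minus early difference itself differed between arms for a part of these genes. A test of the difference between arms, with the day as a block, called 339 genes (2.45%): 89 where the difference was higher with AGi (0.642%) and 250 where it was lower (1.8%). Leaving out day 2, 4, 6, 8, 10 or 12 in both arms gave 30, 18, 175, 451, 1 and 174 calls. Of the 145 genes that passed late against early with AGi, 29 were among the 339, and 137 had the same sign with OKSM alone, against 68.1% of all genes tested. Late against early in the OKSM arm alone called 2291 genes (16.5%), 102 of the 145 among them. Tdgf1 rose by 3.84 ± 0.66 more with AGi (adjusted p = 0.0356), since with OKSM alone it read 5.42, 6.09 and 8.64 late, against 5.28, 6.15 and 5.48 early. Sox2 rose by 3.35 ± 0.42 more (adjusted p = 0.0196), Cyp2b23 by 3.63 ± 0.47 (adjusted p = 0.0207) and Dppa2 by 2.96 ± 0.19 (adjusted p = 0.00367). The pluripotency genes that had missed the late against early test with AGi included Zfp42, whose difference was 2.83 ± 0.39 higher with AGi (adjusted p = 0.0257), and Mir290a (2.79 ± 0.53, adjusted p = 0.0432). Nr0b1 (1.81, adjusted p = 0.0277), Tfcp2l1 (1.86, adjusted p = 0.0280), Dnmt3l (1.75, adjusted p = 0.0311) and Dppa4 (1.70, adjusted p = 0.0351) passed as well.

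Penk went the other way, with a difference 1.53 smaller with AGi (-1.53 ± 0.26, adjusted p = 0.0356): with OKSM alone it read 12.62, 12.75 and 12.85 late. Hoxd11 (-1.08, adjusted p = 0.0196) and Agtr2, an angiotensin receptor (-1.30, adjusted p = 0.0493), rose in the AGi arm by less than with OKSM alone. The lowest differences between arms belonged to genes that scarcely moved with AGi. Cxcl15, a chemokine, read at most 5.28 late with AGi, against 8.64, 9.43 and 9.76 late with OKSM alone (arm difference -3.74 ± 0.27, adjusted p = 0.00576). Lgr5, the R-spondin receptor and a beta-catenin target (-3.10 ± 0.33, adjusted p = 0.0172), Sparcl1, a matrix glycoprotein (-2.97 ± 0.28, adjusted p = 0.0121), Wfdc17, a gene expressed in macrophages (-2.85 ± 0.43, adjusted p = 0.0277), and Mctp1, a calcium-binding membrane protein gene (-2.66 ± 0.36, adjusted p = 0.0237), had the same form. Mmp3 (-0.25 ± 0.25, adjusted p = 0.633), Lum (-0.19 ± 0.35, adjusted p = 0.817) and Kcnma1 (0.20 ± 0.23, adjusted p = 0.686) gave no call between arms.

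**Figure D5:**
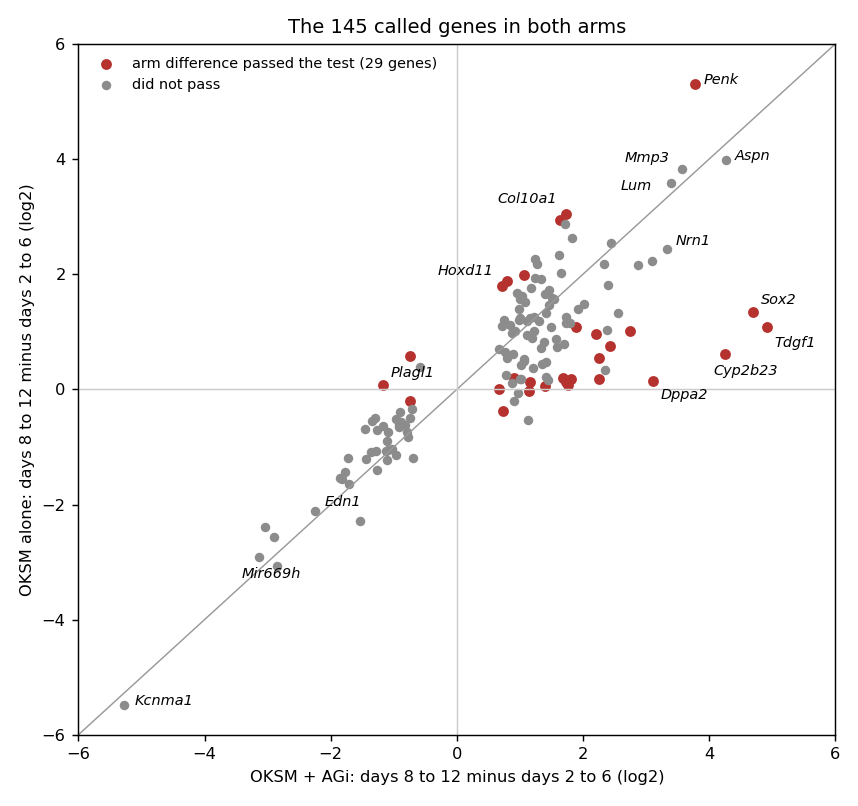
Late minus early difference in log2 of the 145 called genes, OKSM and AGi on the horizontal axis and OKSM alone on the vertical axis, with the line of equal difference. Tdgf1, Sox2, Cyp2b23 and Dppa2 lie far right of the line, Penk above it, and Mmp3, Lum and Kcnma1 near it.

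Other lists held few or no genes that passed. Over all genes tested 1.05% passed, so lists this short may hold none without differing from the rest. None of 18 beta-catenin targets passed, with a median of 0.23, and Axin2, a feedback inhibitor, read 8.32, 7.74 and 8.53 late, against 7.23, 7.62 and 7.50 early (0.75 ± 0.22, adjusted p = 0.142). None of 22 DNA methylation, TET and Jumonji enzymes passed, with a median of 0.23. Tet1, a methylcytosine dioxygenase, read 9.14, 10.39 and 10.94 late, against 7.25, 7.22 and 8.50 early (2.50 ± 0.52, adjusted p = 0.0820). None of 20 hypoxia and glycolysis genes passed, with a median of 0.57. Aldoc, Ndufa4l2 and Epas1, given below, passed and were not in this list. In this list 11 genes had late values above all early ones (15.3% of all genes tested) and 9 moved most between days 4 and 6 (14.5% of all). None of 33 cell cycle genes (median 0.03), 13 p53 and cell cycle inhibitor genes (-0.06), 18 respiratory chain genes (-0.05), 14 AP-1 and immediate early genes (0.25), 14 chemokines (0.01), 22 primitive endoderm and trophoblast genes (0.03), 8 endothelial markers (-0.02), 3 tested 2-cell-like genes (0.25) or 2 tested germline genes (0.99) passed. Of 11 Nodal and primed epiblast genes, Lefty2 rose and the median was 0.41. Plvap, an endothelial gene not in the endothelial list, rose by 0.77 (adjusted p = 0.0365). Of 9 interferon-response genes, Ifit1, an antiviral protein gene, fell by 0.59 (adjusted p = 0.0468), with a list median of 0.14. Outside that list, the interferon-inducible gene Ifi204 rose by 1.92 (adjusted p = 0.0171) and the interferon gene Ifna4 fell by 1.26 (adjusted p = 0.0233). Of 14 neural and glial genes, Penk rose and Kcnma1 fell, and the median was -0.19. In the miR-290 and miR-302 list only Mir290a was tested.

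Markers of macrophages, a cell type that fibroblast cultures can hold, were followed beside these values. None of 19 tested markers passed (1.05% of all genes tested did), and their median difference was 0.01 with AGi and 0.84 with OKSM alone. The mean level of the list lay between 6.77 and 6.94 late, against 6.46 to 7.48 early, with 8.97 in GMPs. Late values lay above all early ones for 3 of the 19 (15.3% of all genes tested). Among these, Cd68, a lysosomal protein of macrophages that other cells also express, read 10.34, 10.45 and 11.77 late, against 10.07, 9.75 and 9.81 early. Gpnmb, a transmembrane glycoprotein, differed by 1.29 ± 0.36 (adjusted p = 0.136), with 9.91, 9.66 and 10.52 late, against 7.97, 9.10 and 9.15 early. Csf1r, the macrophage growth factor receptor, read 6.75, 6.72 and 6.75 late, against 7.04, 6.31 and 6.09 early, and 9.14 in GMPs. The day 2 array stood above days 4 and 6 for most of these markers, for example 10.05, 6.91 and 7.27 for C1qb, a complement chain. Their part in the differences reported above was not tested.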

How the data were processed

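Per the labels' protocols, RNA was taken with the RNeasy Mini kit and labelled with biotin. The authors deposited log2 expression values per probe set of Affymetrix mouse arrays. The submitters' processing notes name RMA and the Affymetrix Expression Console; settings, scan dates and build are not stated there. RMA scales every array to 1 distribution, so a difference is relative to the other probe sets of its array.

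Of 41345 probe sets on 18 arrays, 23521 named 1 gene, 1814 named several, 15820 named none and 190 were controls. Names from the platform's table were brought up to date through RefSeq (GRCm38.p6), except for 193 probe sets. A gene with several probe sets was represented by the brightest, which gave 22180 genes. Genes at or above their array's median on at least 3 of 12 time-course arrays were tested, 13865 in all.

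Differences were fitted with limma 3.58.1 (lmFit and eBayes, R 4.3.3) with Benjamini-Hochberg adjustment over all genes tested. The main fit set days 8, 10 and 12 against days 2, 4 and 6 of the OKSM and AGi arm (4 residual degrees of freedom). A model of a slope over day with a step between days 6 and 8 had 3, and the difference between arms, with the day as a block over 12 arrays, had 4. A gene's leading interval was the interval with its largest move in the direction of its late minus early difference. The number of arrays limits the precision.

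On simulated arrays with 200 changed genes among 13865, the late against early fit recovered 4.48% of changes of 0.5 log2, 59.7% of 1 and 92.4% of 2, with 2 unchanged genes called. The arm fit recovered 1.49%, 32.8% and 77.3%, with 7 unchanged genes called, and the step model recovered none. The simulated spread was that about the period means of the AGi arm, with trends within a period counted as spread.

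The comparison, its members and the 25 gene lists were chosen with earlier results of these data known. Named genes were the 10 highest and lowest called differences with separate groups, the 5 highest and lowest arm differences, up to 4 called members per list (1 where none passed), up to 5 called genes per interval and direction, and a set of key genes. Since only 2 called genes were led by an interval other than days 6 to 8, up to 4 genes per interval and direction with a difference of at least 1 log2 were added after seeing the data, as were called Hox, miRNA and olfactory receptor genes, genes apart on the late arrays, and members of the lists and called genes with a known role. The alternatives changed the filter, the probe set rule, the normalization, the variance model, the fit, the threshold or the days used. Sequences are RefSeq promoters and mature miRNAs; 10828 of the genes tested had a promoter in the table. Plots were made in Python 3.11.15 (matplotlib 3.10.9).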

Additional observations from a re-analysis of the deposited data

Results flagged for a closer look

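The late minus early differences of the AGi and OKSM arms were compared with a test of the difference itself (limma, with the day as a block), which called 339 genes. Among the genes named above, it was higher with AGi for the pluripotency genes Tdgf1 (3.84), Sox2 (3.35), Dppa2 (2.96), Zfp42 (2.83), Mir290a (2.79), Tfcp2l1 (1.86), Nr0b1 (1.81), Dnmt3l (1.75), Dppa4 (1.70), Gdf3 (1.48) and Tet1 (1.35). The same held for Cyp2b23 (3.63), Ndufa4l2 (1.70), Rab25 (1.68), Mdk (1.60) and Grhl2 (1.32). The difference was lower with AGi for Cxcl15 (-3.74), Lgr5 (-3.10), Sparcl1 (-2.97), Wfdc17 (-2.85) and Mctp1 (-2.66). It was also lower for Penk (-1.53), Col10a1 (-1.32), Agtr2 (-1.30) and Hoxd11 (-1.08), which rose with AGi, and for Plagl1 (-1.25) and Mir341 (-0.54), which fell with AGi. All values are in log2, with 3 days a period in each arm.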

How the results depend on the processing

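The late against early counts of 102 higher and 43 lower stayed within 1.5 times under the other filters, probe set rule, quantile normalization and variance model. They became 304 higher with control centring, 912 and 548 with the spread of both arms, 776 and 462 for a slope over day (104 of the 145 shared) and 5 and 4 when tested against 0.5 log2. Leaving out 1 day gave 2 to 127 higher and 4 to 44 lower genes (without day 8, 19 lower; without day 12, 42 higher and 11 lower). The step beyond a slope called 1 lower gene with control centring and 1 with the trended variance, 1 higher and 2 lower over 12 arrays, and 0 to 1 lower with a day left out. The slope beside the step called 48 higher and 34 lower genes over 12 arrays. The difference between arms (89 higher, 250 lower) became 134 lower with the stricter filter and 9 higher and 48 lower without the day block, and leaving out a day gave 1 to 176 higher and 0 to 275 lower (lower genes were 21, 16, 106 and 130 with day 2, 4, 6 or 12 left out). Genes led by days 6 to 8 numbered 203, against 644 at 0.5 log2, 39 at 2 log2, and 127 where that interval had to hold 50% of the summed moves. The cause of these shifts was not tested, beyond the fewer or more arrays each fit used.

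Of 1898 values of 104 named genes under the alternatives, 434 lost their call (295 of them with a day left out), 74 gained one (48 with the spread of both arms or a slope), 8 changed sign and 1382 kept both. The sign changes were of genes not called late against early with AGi: Mctp1 (-0.0236 per day for the slope, and -0.00671, -0.000364 and -0.178 with day 4, 6 or 8 left out), Myc (-0.0432 without day 2, -0.0161 without day 12), Wfdc17 (0.130 without day 2) and Fmod (-0.0500 without day 8). No paired analysis was possible because the late and early arrays are of different days that nothing ties in pairs (numbers 1 to 3 only name them), and the day was a block only between arms.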

Other observations

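Further genes passed the late against early test with AGi, all chosen after their values were seen. Chac1 and Trib3, both targets of the amino acid stress response, rose by 1.45 ± 0.13 (adjusted p = 0.0127) and 0.97 ± 0.16 (adjusted p = 0.0459). Chac1 read 8.53, 8.61 and 8.43 late, against 6.98, 6.94 and 7.30 early, and 7.75, 7.55 and 7.06 late with OKSM alone. The difference between arms did not pass for either (adjusted p = 0.0612 for Chac1, 0.0624 for Trib3). Aldoc, a glycolytic aldolase, rose by 1.80 ± 0.26 (adjusted p = 0.0334). Ndufa4l2, a hypoxia-induced mitochondrial protein gene, rose by 2.25 ± 0.31 (adjusted p = 0.0305), with 8.74, 8.97 and 8.77 late, against 6.23, 6.16 and 7.34 early. Epas1, the hypoxia-inducible factor HIF-2 alpha, rose by 1.13 ± 0.14 (adjusted p = 0.0233).

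The other genes named here encode developmental regulators, secreted proteins, a receptor and a channel. Zic1, a zinc finger factor of neural and mesodermal development, fell by 1.46 (adjusted p = 0.0365), with 7.84, 7.54 and 7.36 late, against 8.61, 9.26 and 9.24 early. Meis2, a cofactor of Hox proteins, fell by 0.79 (adjusted p = 0.0389). Dkk2, a secreted Wnt antagonist, rose by 1.72 ± 0.16 (adjusted p = 0.0127), with 8.54, 8.78 and 8.83 late, against 7.26, 6.98 and 6.76 early. Tgfbr3, the TGF-beta co-receptor betaglycan, rose by 1.63 ± 0.19 (adjusted p = 0.0230), and Col10a1, the collagen X chain of hypertrophic cartilage, by 1.73 ± 0.23 (adjusted p = 0.0300). Igfbp2, an insulin-like growth factor binding protein, rose by 2.56 ± 0.32 (adjusted p = 0.0258) to 11.08 on day 12, near ESCs (11.17). Aqp1, a water channel, rose by 2.87 ± 0.32 (adjusted p = 0.0228).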
